A study of Mus musculus with 8 samples.

Results

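The genes described here build the transport machinery of the cilium and the sperm flagellum: the intraflagellar transport (IFT) particle, the BBSome, the chaperonin-like proteins that help to assemble the BBSome, and proteins of the manchette and the head-tail junction of the spermatid. They were taken from a list of 38 symbols that stand for 37 genes, and the brightest probe set annotated to exactly 1 symbol was used for each gene. Of the 37 genes, 36 were measured, among 19938 genes in all. They were 13 subunits of IFT-B, 6 of IFT-A, 7 of the BBSome, 3 chaperonin-like genes and 7 manchette and head-tail genes. Arl6, the small GTPase that recruits the BBSome to membranes, was not analysed here.

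Levels were measured in whole testis RNA of 5 Ing2-/- mice and 3 Ing2+/+ littermates, all at 2 to 3 months of age, with 1 Mouse Gene ST array per mouse. Ing2 encodes a chromatin reader that belongs to a histone deacetylase complex. The Ing2-/- mice lack exon 2 of Ing2 in every cell. The targeted allele came from embryonic stem cells of a strain other than C57BL/6J, and exon 2 was cut out by Cre driven from the EIIa promoter in the early embryo, and the Cre transgene was then bred out in crosses to C57BL/6J. Heterozygous mice without Cre were intercrossed. Strain background can therefore vary between the mice.

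In intraflagellar transport, motor proteins carry trains of IFT particles along the axoneme, the bundle of microtubules inside a cilium or flagellum. IFT-B is linked to outward transport by kinesin, IFT-A to return transport by dynein, and the BBSome is a cargo adaptor that rides on the trains. The sperm tail is a modified cilium, built by round spermatids and finished while the head elongates. At that time a skirt of microtubules, the manchette, surrounds the spermatid nucleus, helps to shape the head and carries material to the growing tail.

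Many ciliary genes hold an X-box, the binding motif of RFX transcription factors, close to their start. In RefSeq promoter windows (GRCm38.p6, 250 bases before to 50 bases after each annotated start site), the arm of the X-box (GTTGCC) was searched on both strands. It was found in 13 of the 31 members with a window (41.9%) and in 14.1% of all 27025 genes with one. A full X-box joins 2 arms head to head, and it was searched as GTTNCCNGGNAAC, GTTNCCNNGGNAAC and GTTNCCNNNGGNAAC, which read alike on both strands. The full motifs were found in 3 of the 31 members (9.68%) and in 0.903% of all genes. A full motif often holds the arm too, so these counts overlap. Ttc30b, Ift81, Ift122, Ift80 and Rimbp3 had no window. The 6 sequences that follow are those of 2 members with a full motif, Bbs7 and Ttc26, and of the members with a lone arm whose levels in the Ing2-/- and Ing2+/+ testes did not overlap. Each is 30 bases long and written 5′ to 3′ in the direction of the gene, with the motif in capitals.
Bbs7 (chr3:36613489-36613518, minus strand): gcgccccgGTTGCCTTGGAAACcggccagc
Ttc26 (chr6:38381483-38381512, plus strand): ccggcggcGTTGCCGTGGAAACggagctcg
Bbs5 (chr2:69647191-69647220, plus strand): gatgtcgtgacaaagccggcgcGTTGCCtt
Ift172 (chr5:31291097-31291126, minus strand): tgtcgcactcacGTTGCCtgtgcgtcagcg
Katnal1 (chr5:148928785-148928814, minus strand): acctcggccgccGGCAACaggccgctcccc
Spem1 (chr11:69822257-69822286, minus strand): ctggggggggggGGCAACcctgggccttgc

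The motif began at base -121 from the start site in Bbs7 and at -33 in Ttc26. In Katnal1 and Spem1 the arm was read on the opposite strand, as GGCAAC. These are matches of letters and were not tested for binding. The 13 members with the arm had a median log2 fold change of -0.21, and the 18 members with a window but no arm had -0.13. Both of these sets spanned 0. The 5 members without a window had the lowest median, -0.32, and ran from -0.56 to -0.25.

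No member passed the test for a difference between Ing2-/- and Ing2+/+ testes, and most lay slightly lower in Ing2-/- testes. A log2 level is the normalised brightness of a probe set, and a log2 fold change is the Ing2-/- mean minus the Ing2+/+ mean. A gene was called at a Benjamini-Hochberg adjusted p under 0.05 from limma, adjusted over all 35557 probe sets. Of the 36 members 0 were called lower and 0 higher, where 3.01% of all genes were called lower and 1.97% higher. The smallest adjusted p of a member was 0.0761 (limma). At an unadjusted limma p under 0.05, 6 members were lower and 1 was higher, which is 16.7% and 2.78% of the members beside 13.5% and 16.5% of all genes. By the random variance model of the methods at an unadjusted p under 0.001, 0 members were lower and 0 higher, beside 1.83% and 0.878% of all genes.

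The log2 fold changes ran between -0.56 for Rimbp3 and 0.22 for Ift20, with a median of -0.21, where the median of all genes was 0.02. Of the 36 members 29 had a fold change below 0 and 7 above 0, where 9120 of all 19938 genes were below 0. All 5 Ing2-/- arrays lay below all 3 Ing2+/+ arrays for 10 members (27.8%, beside 14.9% of all genes), and above them for 2 members (5.56%, beside 16.7% of all genes). The 95% intervals from limma reached 0.14 to 0.40 to either side of the fold change. Every interval lay between -1 and 1, so a change of 1 or more on the log2 scale was outside the interval of all 36 members. When the arrays were shifted to an equal median of the Sertoli cell markers, the median of all genes moved to -0.65 and that of the members to -0.88, and Ift20 and Mkks then lay at -0.45 and -0.54, above the median of all genes. In whole testis RNA, fewer cells of a type and less RNA per cell cannot be told apart.

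**Figure D1:**
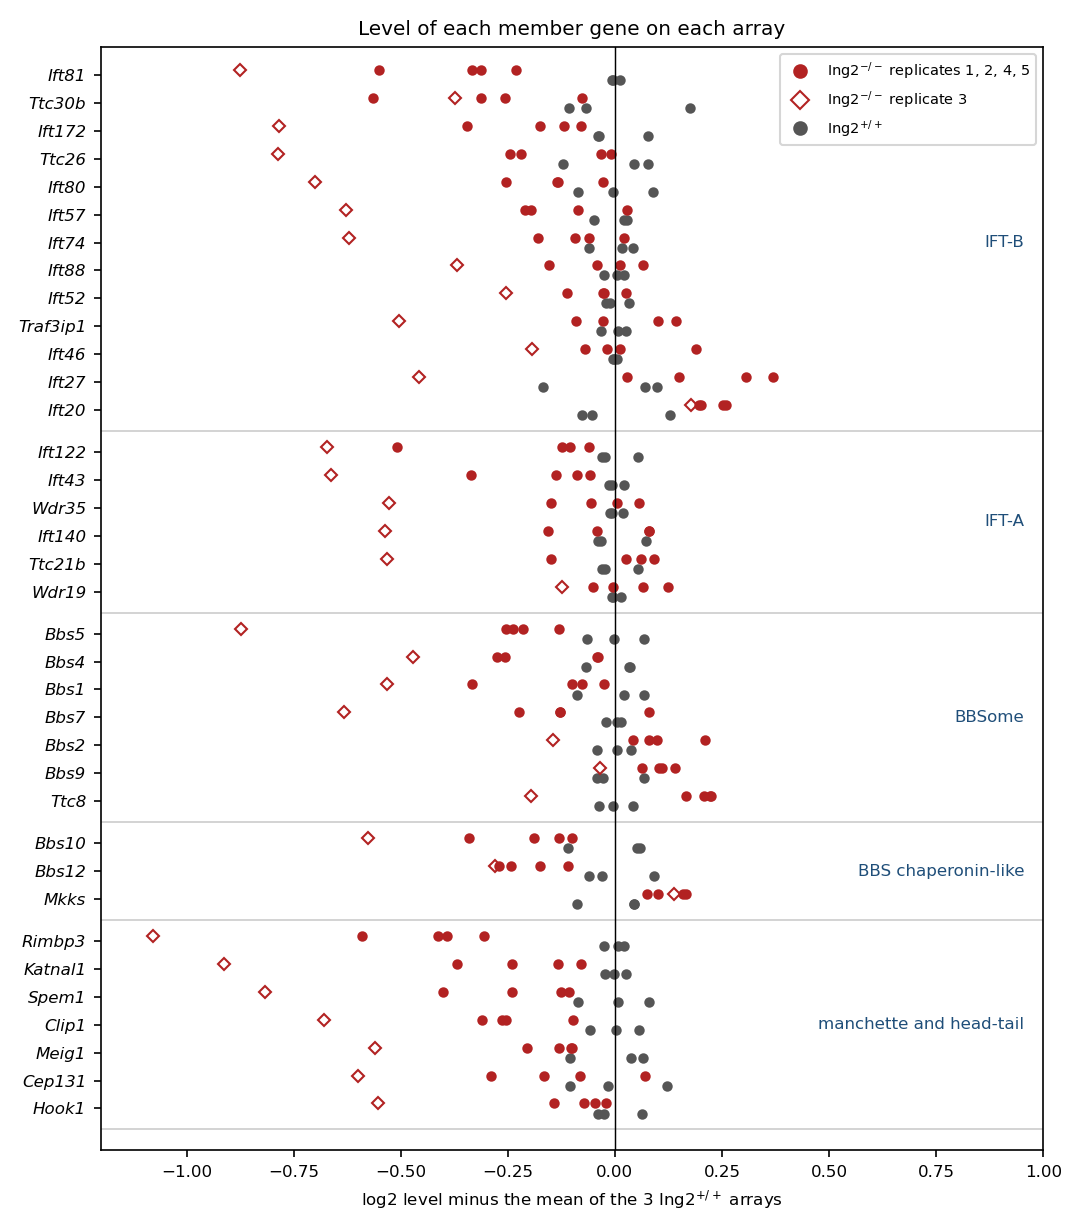
Log2 level of the 36 member genes on each array, relative to the Ing2+/+ mean (x axis), by role; red, Ing2-/- (open diamond, replicate 3), and grey, Ing2+/+. Replicate 3 was the lowest of the 5 Ing2-/- arrays for 34 of the 36 members, and the Ing2+/+ arrays lay close together.

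The Ing2-/- arrays differed among themselves much more than the Ing2+/+ arrays did. The median SD of a member was 0.24 over the Ing2-/- testes and 0.06 over the Ing2+/+ testes, and the Ing2-/- SD was the larger for 33 of 36 members. Replicate 3 stood apart. It was the lowest of the 5 Ing2-/- arrays for 34 of 36 members (94.4%), where it was the lowest for 32.8% of all genes and the highest for 33.7%. For 33 members it lay below the lowest Ing2+/+ array. That share was not computed for all genes, so this count cannot be read as particular to the members. The median distance from the Ing2+/+ mean was -0.54 in replicate 3 and -0.12 for the mean of the other 4 Ing2-/- arrays. Replicates 4 and 1 were the highest Ing2-/- arrays for 18 and 15 members.

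Without replicate 3 the median fold change of the members was -0.12, and 2 members were called lower and 1 higher. Rimbp3 was then called at -0.43 (adjusted p = 0.0127, limma) and Ift81 at -0.36 (adjusted p = 0.0253, limma), both lower in Ing2-/- testes. Ttc8 was called higher, at 0.20 (adjusted p = 0.0399, limma). More genes of all kinds were called in that fit, 1547 lower and 1739 higher, against 600 and 392 with all 8 arrays. Among the other 4 Ing2-/- arrays, all lay below the Ing2+/+ arrays for 10 members and above them for 4, which were Ift20, Mkks, Bbs2 and Ttc8. The share of all genes was not computed for these 4 arrays, so neither count can be read as particular to the members.

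Among the IFT-B subunits, Ift81 had the lowest fold change and Ift20 the highest. Ift81 on chromosome 5, which pairs with Ift74 to bind tubulin, had log2 levels of 9.54, 9.52, 8.98, 9.62 and 9.30 in Ing2-/- testes and 9.85, 9.85 and 9.87 in Ing2+/+ testes. The groups did not overlap, and even the highest Ing2-/- array lay below the tight Ing2+/+ arrays. The fold change was -0.46 (95% interval -0.77 to -0.15, adjusted p = 0.0821, limma), or 0.73 of the Ing2+/+ level, which did not pass the threshold. Its partner Ift74 had -0.19, and its groups overlapped.

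Ift20 on chromosome 11, the subunit that also sits at the Golgi and is needed for the sperm flagellum in mouse, moved the other way. Its levels were 10.30, 10.25, 10.22, 10.24 and 10.30 in Ing2-/- testes and 10.17, 9.99 and 9.97 in Ing2+/+ testes. The Ing2-/- arrays lay close together, replicate 3 included, and all were above the Ing2+/+ arrays. The fold change was 0.22 (95% interval 0.06 to 0.37, adjusted p = 0.0881, limma) and missed the threshold.

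Ift172, a large peripheral subunit, was lower in all 5 Ing2-/- testes than in any Ing2+/+ testis, with a fold change of -0.30 (adjusted p = 0.236, limma). Ttc30b, a subunit with tetratricopeptide repeats, had -0.32 (adjusted p = 0.119, limma) on its own probe set, which was dim, at 6.56 ± 0.18 in Ing2-/- testes (SD, n = 5) and 6.87 ± 0.15 in Ing2+/+ testes (SD, n = 3). A brighter probe set that Ttc30b shares with its close copies had 9.98 ± 0.28 in Ing2-/- and 10.36 ± 0.04 in Ing2+/+ testes, a difference of -0.38 (adjusted p = 0.142, limma), and does not tell the copies apart. The peripheral subunits Ift57 and Ift80 had -0.22 and -0.25, and Ttc26 had -0.26. Ift88, whose loss in mouse leaves cilia unbuilt, had -0.10. Ift52, a core subunit, had -0.08, Traf3ip1 had -0.08 and Ift27, a small GTPase, had 0.08. The groups overlapped for all of these but Ift172 and the shared probe set.

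Ift46, a core subunit on chromosome 9, was the IFT-B member with the smallest change. Its levels were 10.03, 9.998, 9.82, 10.21 and 9.95 in Ing2-/- testes and 10.01, 10.01 and 10.02 in Ing2+/+ testes. The Ing2-/- arrays lay on both sides of the Ing2+/+ arrays, and the fold change was -0.02 (95% interval -0.21 to 0.18). The 13 IFT-B members together had a median of -0.19, with 11 below 0 and 2 above.

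The 6 IFT-A subunits had a median fold change of -0.12, with 5 of them below 0. Ift122 and Ift43 were lower in every Ing2-/- testis than in any Ing2+/+ testis, with -0.29 (adjusted p = 0.230, limma) and -0.26 (adjusted p = 0.247, limma). Wdr35 had -0.13, Ift140 had -0.12 and Ttc21b had -0.10, all with overlapping groups. Wdr19, a subunit with WD repeats on chromosome 5, had levels of 9.63, 9.50, 9.38, 9.57 and 9.45 in Ing2-/- testes and 9.51, 9.49 and 9.50 in Ing2+/+ testes. Its Ing2-/- arrays were spread evenly around the Ing2+/+ arrays, and the fold change was 0.0023 (95% interval -0.16 to 0.16).

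The BBSome subunits fell into 4 with a fold change below 0 and 3 above. Bbs5 on chromosome 2, the subunit whose domains bind membrane lipids, had log2 levels of 10.25, 10.22, 9.59, 10.33 and 10.21 in Ing2-/- testes and 10.53, 10.46 and 10.40 in Ing2+/+ testes. The groups did not overlap, but the gap between them was small and replicate 3 lay far below the other 4 Ing2-/- arrays. The fold change was -0.34 (95% interval -0.70 to 0.02, adjusted p = 0.198, limma). Bbs4 had -0.22, Bbs1 had -0.21 and Bbs7 had -0.21, with overlapping groups.

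Bbs2, Bbs9 and Ttc8 had fold changes of 0.06, 0.08 and 0.12. Bbs2 on chromosome 8, which with Bbs7 and Bbs9 forms the core that the assembly starts from, had the smallest of these. Its levels were 8.98, 8.85, 8.63, 8.87 and 8.82 in Ing2-/- testes and 8.81, 8.73 and 8.78 in Ing2+/+ testes. All of its Ing2-/- arrays but replicate 3 lay above the Ing2+/+ arrays, and replicate 3 lay below them. The same held for Ttc8, with 7.67, 7.69, 7.27, 7.63 and 7.68 in Ing2-/- testes and 7.51, 7.46 and 7.43 in Ing2+/+ testes.

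The chaperonin-like genes Mkks, Bbs10 and Bbs12 encode relatives of the cytoplasmic chaperonin CCT that act with it in the assembly of the BBSome. Bbs10 had a fold change of -0.27 (adjusted p = 0.170, limma). Bbs12 had -0.22 (adjusted p = 0.0929, limma), with no overlap, on a dim probe set at 6.19 ± 0.07 in Ing2-/- testes (SD, n = 5) and 6.41 ± 0.08 in Ing2+/+ testes (SD, n = 3). It was the only member below the median level of all probe sets. Mkks on chromosome 2, which had the smallest change of the 3, was on the other side. Its levels were 6.76, 6.69, 6.73, 6.67 and 6.75 in Ing2-/- testes and 6.64, 6.50 and 6.64 in Ing2+/+ testes. All Ing2-/- arrays lay above the Ing2+/+ arrays by a narrow gap, and the fold change was 0.13 (95% interval -0.01 to 0.27, adjusted p = 0.214, limma).

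**Figure D2:**
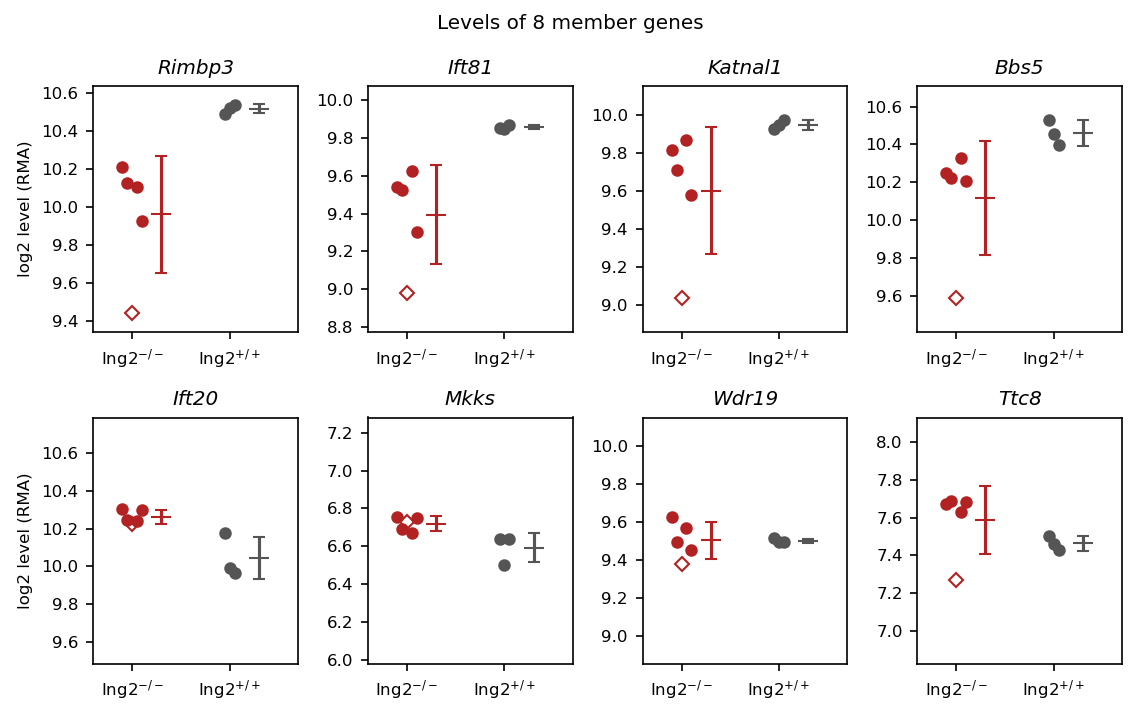
Log2 levels (y axis, each panel spanning the same range) of 8 members in Ing2-/- (red, left; open diamond, replicate 3) and Ing2+/+ testes (grey, right), with mean and SD beside the arrays. In the upper row all Ing2-/- arrays lay below the Ing2+/+ arrays; Ift20 and Mkks lay above, and in Ttc8 only replicate 3 lay below.

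The manchette and head-tail genes had the lowest median fold change of the 5 roles, -0.32, and 7 of 7 had a fold change below 0. For 4 of them all Ing2-/- arrays lay below all Ing2+/+ arrays, beside 14.9% of all genes. The same held for 13 of 17 round spermatid markers and 10 of 17 markers of elongating spermatids and sperm, so it was not particular to this role. Rimbp3 on chromosome 16, a manchette protein that binds Hook1 and is needed for the shape of the sperm head in mouse, had log2 levels of 10.21, 10.13, 9.44, 10.10 and 9.93 in Ing2-/- testes and 10.49, 10.52 and 10.54 in Ing2+/+ testes. Every Ing2-/- array lay well below the Ing2+/+ arrays. The fold change was -0.56 (95% interval -0.92 to -0.19), or 0.68 of the Ing2+/+ level. Its adjusted p of 0.0761 (limma) was the smallest of the members and missed the threshold.

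Katnal1 on chromosome 5, a relative of the microtubule-severing katanin that is known in mouse for its role in Sertoli cells, had 9.82, 9.71, 9.04, 9.87 and 9.58 in Ing2-/- testes and 9.93, 9.95 and 9.97 in Ing2+/+ testes. The groups did not overlap, and replicate 3 was by far the lowest array. The fold change was -0.35 (95% interval -0.74 to 0.05, adjusted p = 0.229, limma). Spem1, which acts in the removal of cytoplasm from the sperm head and neck in mouse, had -0.34 (adjusted p = 0.194, limma). Clip1, a protein that tracks growing microtubule ends, had -0.32 (adjusted p = 0.128, limma). Neither of these had overlapping groups.

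Meig1, needed in mouse for the manchette and the sperm tail, had -0.22, and Cep131, a protein of the centriolar satellites, had -0.21. Hook1 on chromosome 4, which links the manchette to the nuclear envelope and is mutated in mice with abnormally shaped sperm heads, had the smallest change of the 7. Its levels were 11.24, 11.19, 10.70, 11.21 and 11.12 in Ing2-/- testes and 11.32, 11.22 and 11.23 in Ing2+/+ testes. Apart from replicate 3, the arrays of both groups lay within a narrow range, and the fold change was -0.17 (95% interval -0.44 to 0.11).

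**Figure D3:**
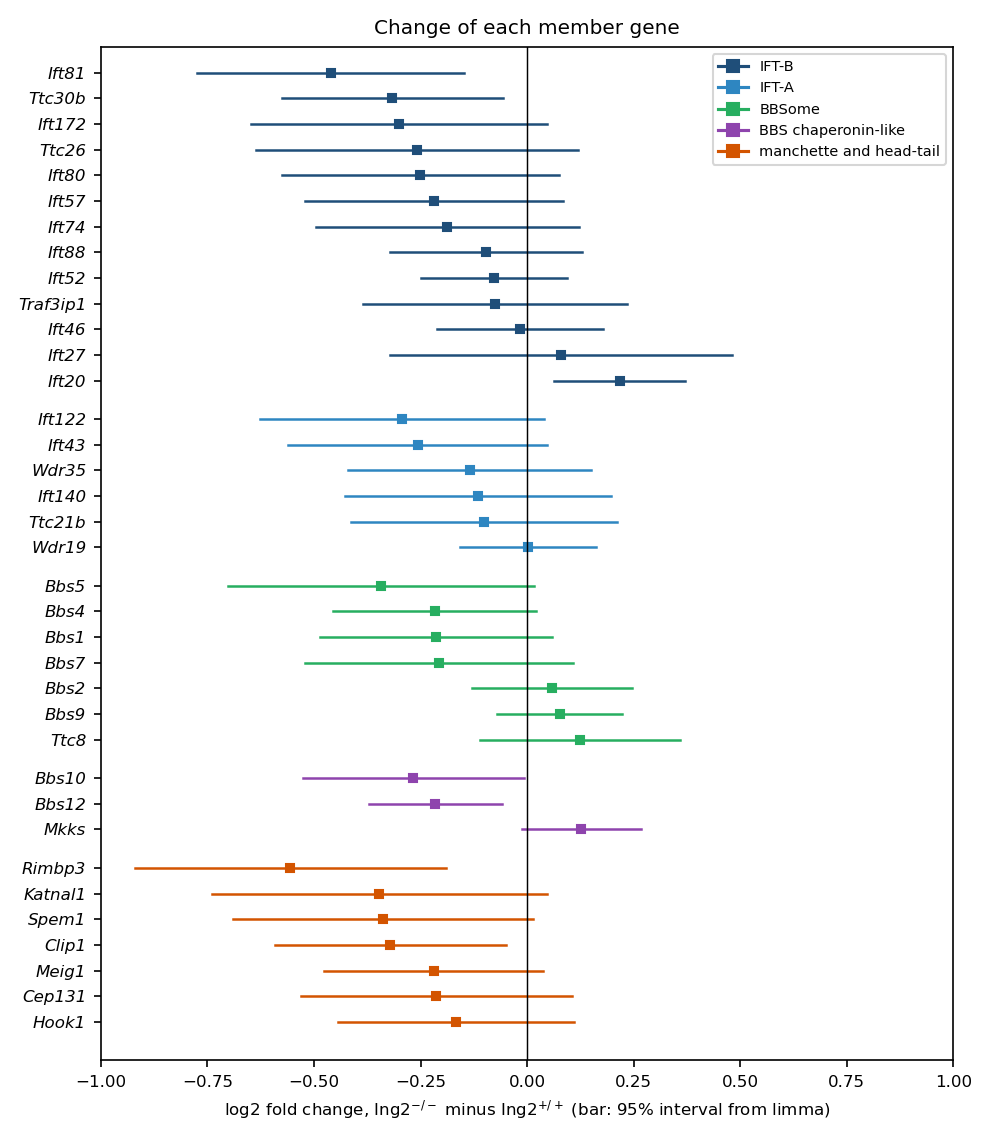
Log2 fold change of each member, Ing2-/- minus Ing2+/+ (square; x axis), with its 95% interval from limma (bar), coloured by role. The 7 manchette and head-tail genes all lay left of 0, and Ift20 was the highest at 0.22.

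As a check of the genotype, Ing2 had levels of 5.29 ± 0.22 in Ing2-/- testes (SD, n = 5) and 7.46 ± 0.13 in Ing2+/+ testes (SD, n = 3), a fold change of -2.16 (SE 0.13, adjusted p = 3.95e-04, limma). Array medians were 6.46 to 6.53 in Ing2-/- testes and 6.41 to 6.45 in Ing2+/+ testes. Over all probe sets, replicate 3 had a mean Pearson r of 0.983 with the other Ing2-/- arrays, which had 0.990 to 0.992, and the Ing2+/+ arrays had 0.995 with each other.

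Lists of markers of germ cells and of somatic testis cells were set beside the members. A score was taken as the mean over the genes of a list of the level minus its Ing2+/+ mean. The score of all 36 members was -0.04, -0.11, -0.51, -0.02 and -0.18 in Ing2-/- replicates 1 to 5, and -0.02 to 0.01 in Ing2+/+ testes. Markers of round spermatids were at -0.92 in replicate 3 and -0.36 to -0.17 in the other Ing2-/- testes, against -0.03 to 0.03 in Ing2+/+ testes. All 17 round spermatid markers had a fold change below 0, 1 was called lower, and their mean level was 9.29 to 10.04 in Ing2-/- and 10.18 to 10.23 in Ing2+/+ testes. All 17 markers of elongating spermatids and sperm were below 0 too, with 0 called, and their mean level was 10.96 to 11.44 in Ing2-/- and 11.51 to 11.58 in Ing2+/+ testes. Of 14 pachytene spermatocyte markers 13 were below 0 and 1 was called lower, with mean levels of 10.11 to 10.54 in Ing2-/- and 10.64 to 10.66 in Ing2+/+ testes.

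Most somatic markers had a fold change above 0. Few were called outside the Leydig list, where 1.97% of all genes were called higher. All 24 Sertoli cell markers had a fold change above 0 and 1 was called, with a mean level of 8.48 to 9.29 in Ing2-/- and 8.18 to 8.21 in Ing2+/+ testes. All 10 Leydig cell markers were above 0 and 5 were called, with a mean level of 9.20 to 10.02 in Ing2-/- and 8.90 to 8.98 in Ing2+/+ testes. Replicate 3 was again the extreme array, with a score of 1.09 for Sertoli and 1.08 for Leydig markers. From highest to lowest member score the Ing2-/- arrays ran 4, 1, 2, 5, 3. The round spermatid score had the same order, and from lowest to highest so did the Leydig score. The order was 2, 1, 4, 5, 3 for elongating spermatids from highest to lowest, and 2, 4, 1, 5, 3 for Sertoli cells from lowest to highest, so that replicates 5 and 3 stood last in each of these lists and the order of the other arrays varied. The balance of somatic and germ cell markers, taken as the Sertoli score less the average of both spermatid scores, was 0.50 to 1.85 in Ing2-/- testes and -0.02 to 0.02 in Ing2+/+ testes, so that genotype and cell mix cannot be told apart by group. With it as a covariate in the fit, the median fold change of the members was 0.12 and that of all genes 0.02, with 0 members called lower and 0 higher. Rimbp3 was then at -0.10 (adjusted p = 0.645, limma), Ift81 at -0.084 (adjusted p = 0.723, limma) and Clip1 at -0.016 (adjusted p = 0.967, limma), and the other 5 manchette and head-tail genes besides Rimbp3 and Clip1 lay above 0.

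Markers of cells that also build cilia outside the seminiferous epithelium were looked at for the same reason. The 10 markers of multiciliated epithelium of the efferent ducts and rete testis had a mean level of 7.22 to 7.53 in Ing2-/- and 7.58 to 7.59 in Ing2+/+ testes, with 0 called. The genes furthest below 0 were bright here, such as Dynlrb2 at -0.38 and 1110017D15Rik at -0.44, while the dim Sntn, Tmem212, Cdhr3 and Ccdc153 had 0.01 to 0.04. The 12 epididymis markers had a mean level of 4.77 to 5.39 in Ing2-/- and 4.87 to 4.93 in Ing2+/+ testes, with 0 called, and Ing2-/- replicate 4 was the highest. In that array Spink8 was at 7.76 and Adam7 at 6.80. The other Ing2-/- arrays had 4.58 to 5.75 and 4.16 to 5.31, and Ing2+/+ arrays 4.62 to 5.18 and 4.18 to 4.32. These genes were picked after their values were seen. Rnase9, Lcn5 and Ros1 were also highest of the Ing2-/- arrays in replicate 4. Defb41 and Rnase10 were lowest there, at 3.47 and 4.37, and Gpx5, Lcn8, Lcn9, Cst11 and Spag11a were not highest. Replicate 4 was also the highest Ing2-/- array for 18 members, and without it the median fold change of the members was -0.25, with 0 called lower and 0 higher. The part of epididymal RNA in the members' values was not tested. Macrophage markers had a mean level of 6.90 to 7.33 in Ing2-/- and 6.80 to 6.81 in Ing2+/+ testes, with 0 of 13 called; 12 had a fold change above 0, and Aif1, at -0.26, had all Ing2-/- arrays below the Ing2+/+ arrays. Peritubular myoid markers had 7.82 to 8.19 in Ing2-/- and 7.72 to 7.79 in Ing2+/+ testes, with 0 of 8 called; 7 were above 0, and Actg2, at -0.48, had all Ing2-/- arrays below the Ing2+/+ arrays. Endothelial markers had 6.25 to 6.41 in Ing2-/- and 6.07 to 6.18 in Ing2+/+ testes, with 1 of 9 called higher. Spermatogonial markers had 7.05 to 7.28 in Ing2-/- and 7.04 to 7.10 in Ing2+/+ testes, with 1 of 15 called lower. Early meiotic markers had 8.59 to 8.97 in Ing2-/- and 8.95 to 9.07 in Ing2+/+ testes, with 2 of 16 called lower.

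**Figure D4:**
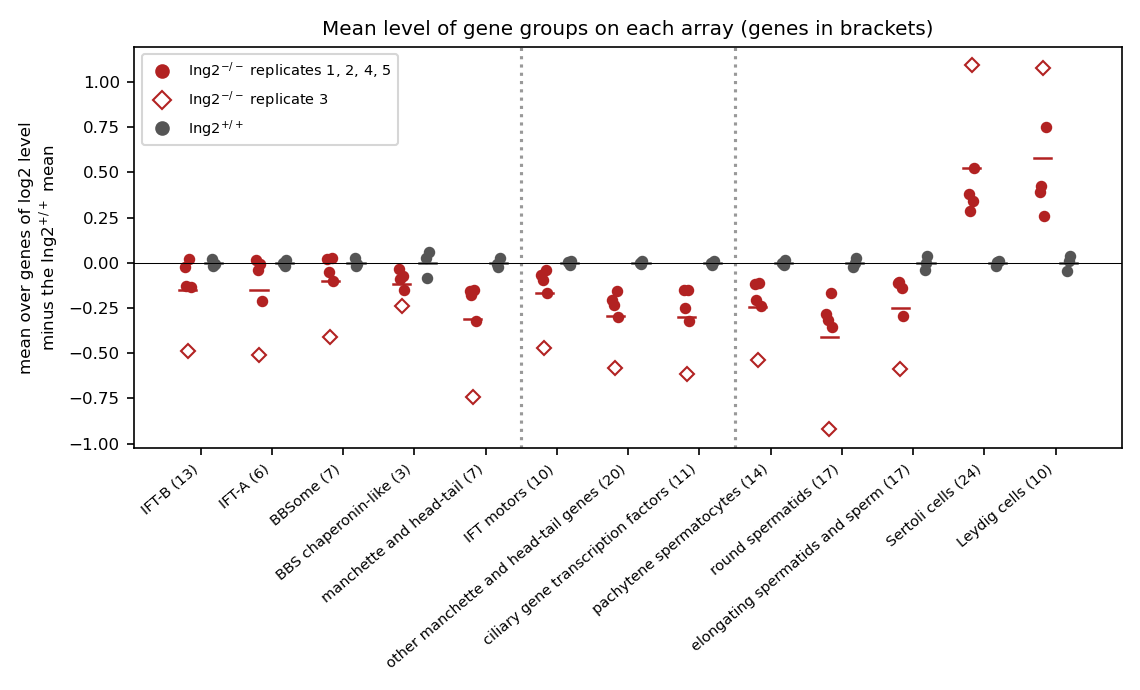
Score of each gene group on each array (y axis, mean over genes of the log2 level minus its Ing2+/+ mean), Ing2-/- in red on the left and Ing2+/+ in grey on the right, bars at the mean; number of genes in brackets. Replicate 3 (open diamond) was the lowest array in each of the 5 role groups, the 3 further lists and the spermatocyte and spermatid markers shown, and the highest for Sertoli and Leydig markers.

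Further lists of genes of the cilium, the manchette, CCT and transcription factors held 5 called genes, each lower in Ing2-/- testes. Of all genes 3.01% were called lower, and the number measured is given with each list. The motors that pull IFT trains had 0 of 10 called and a median fold change of -0.26, with 5 genes whose groups did not overlap, all lower (beside 14.9% of all genes). Kifap3, the accessory subunit of heterotrimeric kinesin, had -0.33 (adjusted p = 0.106, limma), and Dync2li1, a chain of the dynein of the cilium, had -0.24 (adjusted p = 0.127, limma). Other IFT particle subunits had 0 of 4 called and a median of -0.06. Among them Hspb11, the partner of Ift27, had 0.13 (adjusted p = 0.261, limma) and Cluap1 had -0.16 (adjusted p = 0.418, limma). The subunits of the chaperonin CCT had 0 of 9 called and a median of -0.03. Tcp1 had -0.09 (adjusted p = 0.438, limma), and Cct6b, the subunit made in testis, had -0.29 (adjusted p = 0.211, limma).

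Of 10 other BBS genes and BBSome regulators, with a median of -0.13, Rabl2 was called. Rabl2 on chromosome 15 is a small GTPase that binds IFT-B and is needed for sperm motility in mouse. Its levels were 8.58, 8.41, 8.21, 8.77 and 8.22 in Ing2-/- testes and 9.17, 8.96 and 9.04 in Ing2+/+ testes. The groups lay apart, with a fold change of -0.62 (SE 0.13, adjusted p = 0.0407, limma). Of 16 genes of the transition zone, the gate at the base of the cilium, with a median of -0.09, Rpgr was called. Rpgr on chromosome X had 8.73, 8.69, 8.44, 8.83 and 8.69 in Ing2-/- testes and 9.24, 9.10 and 9.10 in Ing2+/+ testes. All Ing2-/- arrays were lower, with a fold change of -0.47 (SE 0.09, adjusted p = 0.0308, limma).

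The other manchette and head-tail genes had a median of -0.28, with 17 of 20 below 0, 13 without overlap and lower (beside 14.9% of all genes), and 2 called lower (beside 3.01%). Spef2 on chromosome 15, which travels on the manchette and binds Ift20, had 8.93, 8.73, 8.17, 9.05 and 8.56 in Ing2-/- testes and 9.71, 9.44 and 9.49 in Ing2+/+ testes. Its fold change was -0.86 (SE 0.18, adjusted p = 0.0402, limma), larger than that of any of the 36 members. Hook2, a relative of Hook1, had 7.32, 7.37, 7.08, 7.37 and 7.36 in Ing2-/- testes and 8.01, 8.13 and 8.26 in Ing2+/+ testes. Replicate 3 was the lowest array and the other 4 Ing2-/- arrays lay close together, and the fold change was -0.84 (SE 0.09, adjusted p = 0.00624, limma).

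Among 11 transcription factors of ciliary and spermatid genes, with a median of -0.31 and 10 of 11 below 0, Rfx1 was called. Rfx1 had 8.36, 8.49, 7.80, 8.30 and 8.32 in Ing2-/- testes and 8.82, 9.04 and 9.08 in Ing2+/+ testes. Even the highest Ing2-/- array lay below the Ing2+/+ arrays, with a fold change of -0.72 (SE 0.15, adjusted p = 0.0361, limma). Rfx3, a factor of ciliary genes chosen here after its value was seen, had -0.55 (adjusted p = 0.0517, limma) and was not called. The other RFX factors in the list were not called either. Rfx2 had -0.31, Rfx4 -0.34 and Rfx5 -0.095, and Rfx7 lay above 0 at 0.15. Hook2 and Rfx1 both lie on chromosome 8, as does Ing2 itself. Bbs2, a member on the same chromosome, had 0.06 (adjusted p = 0.698, limma). In Ing2-/- mice, DNA close to Ing2 can carry the strain of the targeted allele, so strain there and genotype cannot be told apart. A part of the chromosome in these values was not tested. Odf1 and Spag6 of the manchette list, and Crem and Foxj1 of the factor list, also stand in lists of cell markers.

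**Figure D5:**
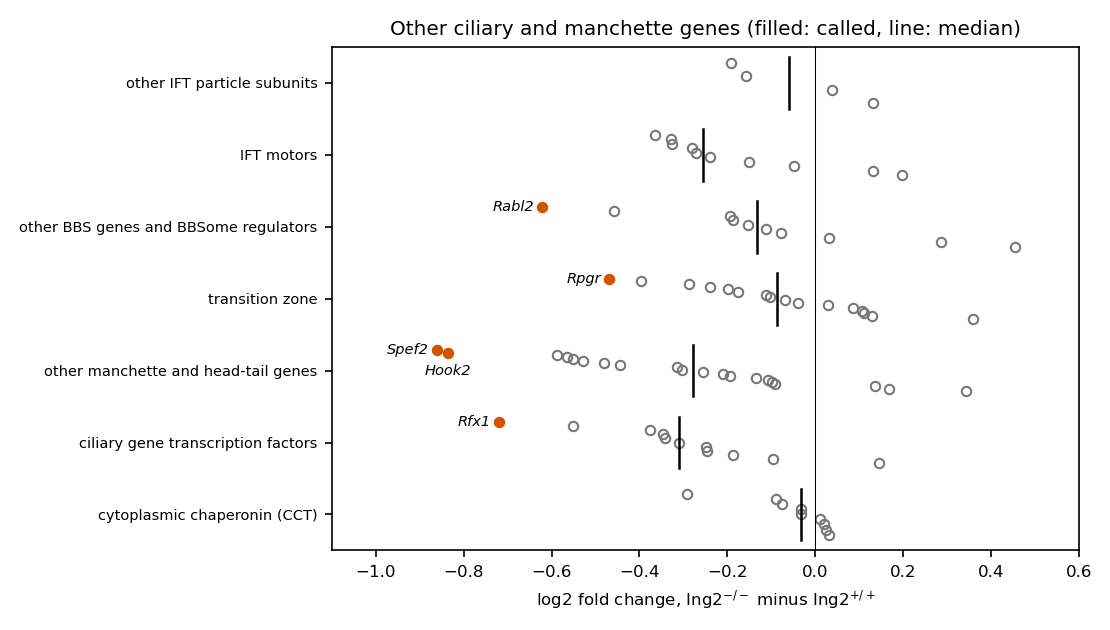
Log2 fold change (x axis, Ing2-/- minus Ing2+/+) of each gene in 7 further lists; circles are genes, filled where called (adjusted p under 0.05, limma), and the line is the median of the list. The 5 called genes all lay left of 0, between -0.86 for Spef2 and -0.47 for Rpgr.

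The 5 calls differed in how far they rested on single arrays. Hook2 lost its call only without Ing2+/+ replicate 2 (adjusted p = 0.0539, limma), among the 8 fits that each left out 1 array. Rabl2, Rpgr and Spef2 lost theirs without Ing2-/- replicate 1, 2 or 5 or any 1 Ing2+/+ array, and Rfx1 without Ing2-/- replicate 1 or 5 or any 1 Ing2+/+ array. The highest adjusted p (limma) in these fits was 0.154 for Rabl2, 0.136 for Rpgr, 0.153 for Spef2 and 0.142 for Rfx1. The fold changes kept their sign throughout, for instance -0.95 to -0.73 in Spef2 and -0.80 to -0.61 in Rfx1. All 4 were called without replicate 3. The same 4 lost their calls, and Hook2 did not, with the cell mix as a covariate and with the unmoderated variance of each gene. All 5 lost their calls with the replicate number as a block, and Rpgr did with a minimum change of 1.5-fold. By the random variance model at an unadjusted p under 0.001, 2 of the 5 did not pass.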

How the data were processed

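Affymetrix Mouse Gene ST arrays, 1 per mouse, measured Trizol-extracted RNA of whole testes from 5 Ing2-/- and 3 Ing2+/+ mice, with none pooled. The deposited values are log2 levels that the authors obtained by RMA (Affymetrix Expression Console, NetAffx annotation); the sources give no version of Expression Console. Because RMA gives all arrays a common distribution, a level is relative to the rest of the RNA in that testis. Arrays give no read depth, and their number limits the precision.

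Gene names came from the annotation of the platform, with symbols updated by gene identifier in the RefSeq gene table of GRCm38.p6 for 21698 of 21789 probe sets with 1 symbol. Of the other probe sets, 1621 had several symbols and 12147 none, and these name no gene here. Where a gene had several probe sets with 1 symbol, the brightest over the 8 arrays was used. The Ing2-/- and Ing2+/+ arrays were fitted without covariates by lmFit and eBayes of limma 3.58.1 (R 4.3.3, 2.85 prior degrees of freedom), and p-values were adjusted by Benjamini-Hochberg over 35557 probe sets. Exact permutation of 5 against 3 arrays cannot give a two-sided p below 0.0179. Motifs were searched with Python 3.11.15 (1 sequence with a full motif is not reported here), and figures were drawn with matplotlib 3.10.9. The limma p-values set the difference between the groups against the spread between these mice, moderated over all probe sets.

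The member genes and all lists were chosen with earlier results of these data known. Array levels are given for uncalled members without overlap (the 4 with the largest change), the 2 largest increases and the smallest change in each role. From each further list the called genes are named, or else the 2 with the smallest p. Levels of Ttc8 and the value of Rfx3 were added after they were seen. The alternatives tried were a block for the replicate number, fits without 1 array, filters on level and symbol, cyclic loess, equal Sertoli marker medians, other variance estimates, array weights, a cell mix covariate, the random variance model, the mean of a gene's probe sets and a minimum change of 1.5-fold.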

Additional observations from a re-analysis of the deposited data

Results flagged for a closer look

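In 5 of the 42 sets of Ing2-/- values tested (the 36 members and 6 scores), 1 array lay far from the other 4, by Dixon's test at the 95% level, and in each it was replicate 3, as the lowest. Chance flags about 1 in 20 such sets, and the sets share their arrays. Bbs5 was at 9.59 in replicate 3, with the other 4 Ing2-/- arrays at 10.21 to 10.33. Ttc8 was at 7.27, with the others at 7.63 to 7.69. Hook1 was at 10.70, with the others at 11.12 to 11.24. Meig1 was at 10.87, with the others at 11.22 to 11.33. The score of the manchette and head-tail genes was -0.74 in replicate 3 and -0.32 to -0.15 in the others. Replicate 3 also had the highest Sertoli and Leydig scores, 1.09 and 1.08; the part of this in the members' values was not tested.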

How the results depend on the processing

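Of the alternatives, 0 members were called lower and 0 higher in every one but 3: leaving out Ing2-/- replicate 3, array weights and equal Sertoli marker medians. Leaving out 1 array gave 0 to 2 members lower (2 without Ing2-/- replicate 3) and 0 to 1 higher (1 without the same array). Array weights, lowest for that array (0.212), gave 3 lower (Rimbp3, Ift81 and Clip1) and 1 higher (Ift20). Equal Sertoli marker medians gave 31 lower, with 14238 of all genes lower. Calls among all genes, 600 lower and 392 higher, ranged over 36 to 1547 lower and 4 to 1739 higher when 1 array was left out. They were 1851 and 2256 with array weights, 45 and 25 with the cell mix covariate, 89 and 53 with unmoderated variances, 688 and 657 among brighter probe sets, 902 and 744 among probe sets with 1 symbol, 897 and 717 with the mean of a gene's probe sets, 904 and 289 after cyclic loess, 464 and 224 with robust estimation, 365 and 175 by the random variance model, and 319 and 103 with a minimum change.

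The labels do not say whether the replicate numbers 1 to 3 that both genotypes carry pair the mice. Same-numbered arrays had deviations that correlated at -0.06, 0.18 and 0.01, and 1 of 3 Ing2-/- arrays was closest to the Ing2+/+ array of its number. With so few arrays these values cannot decide it, and the mice were not treated as paired. With the number as a replicate block, 0 members were called lower and 0 higher, as were 0 genes in all, and Wdr19 lay at -0.0016. The block leaves few arrays to estimate the spread from, and Ing2 itself lost its call in that fit.

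Fold changes of uncalled genes changed sign as follows; the cause was not tested. With the cell mix covariate they were 0.15 for Ift46, 0.061 for Ift52, 0.13 for Ift57, 0.16 for Ift74, 0.11 for Ift80, 0.12 for Ift88, 0.12 for Ift172, 0.29 for Traf3ip1, 0.18 for Ttc26, 0.11 for Ift43, 0.078 for Ift122, 0.25 for Ift140, 0.28 for Ttc21b, 0.18 for Wdr35, 0.084 for Bbs1, 0.0047 for Bbs4, 0.095 for Bbs5, 0.16 for Bbs7, 0.012 for Bbs10, 0.16 for Hook1, 0.14 for Cep131, 0.14 for Katnal1, 0.053 for Meig1, 0.085 for Spem1, 0.16 for Cluap1, 0.092 for Cct6b and 0.019 for Tcp1. With equal Sertoli marker medians they were -0.45 for Ift20, -0.58 for Ift27, -0.66 for Wdr19, -0.61 for Bbs2, -0.59 for Bbs9, -0.54 for Ttc8, -0.54 for Mkks and -0.53 for Hspb11. Ift46 was at 0.010 after cyclic loess and at 0.021 with array weights, and Traf3ip1 at 0.0098 with array weights. Over the fits without 1 array, Ift27 spanned -0.0041 to 0.21, Ift46 -0.067 to 0.028, Traf3ip1 -0.13 to 0.031, Ttc21b -0.15 to 0.0070 and Wdr19 -0.028 to 0.033. Bbs12, Hspb11 and Ing2 fell under the level filter and have no value there.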
